A study of Mus musculus with 24 samples.

Results

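Interferon-induced genes were followed in the hearts of 4 mouse genotypes. The set was given as gene symbols, with no measured value in its rule but with earlier results of these data known, as Ifi27l2a, Ifit1, Ifit3, Isg15, Irf7, Oasl2, Bst2, Ifitm3 and Usp18. Of these 9 genes, 8 had a probe set of their own, 1 each, among the 18193 genes with such a probe set on the array. The probe set for Isg15 was annotated to Isg15 and Gm9706 together, so no value is given for that gene. Hearts came from mice of 90 days of age, 6 hearts per genotype, and total RNA was hybridised to Affymetrix arrays. The ARG and GLY mice carried human cDNA for the Arg389 or the Gly389 form of the beta1-adrenergic receptor, and the AC5 mice carried human cDNA for AC5, an adenylyl cyclase. In all these transgenic groups the alpha-myosin heavy chain promoter drove the cDNA in cardiac myocytes. Non-transgenic mice (NTG) carried no transgene. The labels give neither strain nor sex, nor the number of founder lines.

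Interferons are secreted when a cell senses foreign nucleic acid. Type I interferons bind a cell surface receptor, and the signal ends at interferon-stimulated response elements in the promoters of target genes. Type II interferon, or interferon gamma, has a receptor of its own, acts through gamma-activated sequences in promoters, and is a strong inducer of antigen presentation genes. The 9 genes act at different steps. Ifit1 and Ifit3 are tetratricopeptide repeat proteins that restrain viral translation, and Oasl2 belongs to the oligoadenylate synthetase family. Bst2 tethers budding virions and Ifitm3 blocks viral entry at endosomes. Isg15 is a ubiquitin-like modifier, Usp18 removes it and also damps signalling at the receptor, and Irf7 amplifies interferon production. Ifi27l2a is a small membrane protein of the Isg12 family.

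Each deposited value was a ratio that averaged near 1 over NTG hearts, so the values show how a gene differed between hearts but not how abundant its transcript was. For the same reason the tissue could not be checked by the level of heart genes. Some arrays stood apart. AC5 replicate 4 did so in the interferon-induced genes themselves, as described below, and results that rest on it are given with and without it. GLY replicates 1 and 3 and ARG replicate 1 had low array weights (0.354, 0.312 and 0.478) over all probe sets. The tissue was whole heart, so more cells of a type and more RNA per cell cannot be told apart.

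The promoters were read for what these genes share in sequence beyond their name. RefSeq promoters (GRCm38.p6, 250 bases before and 50 after the start) were held for 7 of the 9 genes. The core of the interferon-stimulated response element, a pair of GAAA repeats with any 2 bases between them, was searched on both strands with overlaps allowed. It occurred in 5 of these 7 promoters, against 3.44% of the 32851 mouse promoters searched. The promoters of Irf7 and Oasl2 held no match in this window. Isg15 had 3 matches, beginning 78, 72 and 66 bases before the start, each overlapping the next. The letters TTCNNNGAA, the core of the gamma-activated sequence, occurred in the windows of Bst2 and Ifitm3, against 8.30% of all promoters. In both windows this match overlapped a match of the other motif. The promoters of Ifit1 (chr19:34640639-34640938, plus strand) and Ifit3 (chr19:34583279-34583578, plus strand) are shown because these genes had the largest values of a single heart. That of Ifitm3 (chr7:141010695-141010994, minus strand) is shown as a gene that rose in ARG hearts, and that of Bst2 (chr8:71537423-71537722, minus strand) as one that was called in no comparison. Capitals mark the matches to this core on either strand.
Ifit1: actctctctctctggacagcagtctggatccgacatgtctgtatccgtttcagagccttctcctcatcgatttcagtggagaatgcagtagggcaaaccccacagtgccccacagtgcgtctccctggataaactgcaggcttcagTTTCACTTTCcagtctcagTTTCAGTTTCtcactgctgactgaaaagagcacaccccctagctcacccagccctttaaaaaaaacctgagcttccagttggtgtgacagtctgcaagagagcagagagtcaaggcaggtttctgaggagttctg
Ifit3: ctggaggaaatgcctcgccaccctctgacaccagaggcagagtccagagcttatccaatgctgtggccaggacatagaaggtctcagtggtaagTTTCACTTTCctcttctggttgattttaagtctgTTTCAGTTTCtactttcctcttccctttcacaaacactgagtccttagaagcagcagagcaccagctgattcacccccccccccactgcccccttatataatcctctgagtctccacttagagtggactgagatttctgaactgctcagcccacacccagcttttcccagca
Ifitm3: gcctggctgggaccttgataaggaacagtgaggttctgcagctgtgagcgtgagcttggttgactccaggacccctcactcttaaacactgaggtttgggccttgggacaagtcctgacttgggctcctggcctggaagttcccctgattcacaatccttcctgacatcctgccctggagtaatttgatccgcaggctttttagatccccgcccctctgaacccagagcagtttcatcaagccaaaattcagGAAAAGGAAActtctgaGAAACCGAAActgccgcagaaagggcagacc
Bst2: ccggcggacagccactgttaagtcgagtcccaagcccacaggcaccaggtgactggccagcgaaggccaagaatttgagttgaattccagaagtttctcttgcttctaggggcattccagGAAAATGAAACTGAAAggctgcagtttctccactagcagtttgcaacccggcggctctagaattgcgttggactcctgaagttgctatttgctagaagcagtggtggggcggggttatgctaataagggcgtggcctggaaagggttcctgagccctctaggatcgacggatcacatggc

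In Ifit1 the pair of matches began 104 and 85 bases before the start, and in Ifit3 156 and 122 bases before it, each counted from the left end of the match. Both genes carried them on the opposite strand, as a pair of TTTC repeats, with the same letters at the first match of each gene and the same at the second. In Ifitm3 the matches lay just after the start, at bases 3 and 20, and in Bst2 they overlapped at 130 and 124 bases before it.

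ARG hearts were first set against NTG hearts. Of the 8 measured genes, 3 rose and 5 were not called by limma at an adjusted p under 0.05, while 4.24% of all genes were called higher and 7.1% lower. The median difference of the 8 genes was 0.25 on the log2 scale, against -0.01 over all genes. The genes that rose were Ifi27l2a, Ifitm3 and Oasl2.

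**Figure D1:**
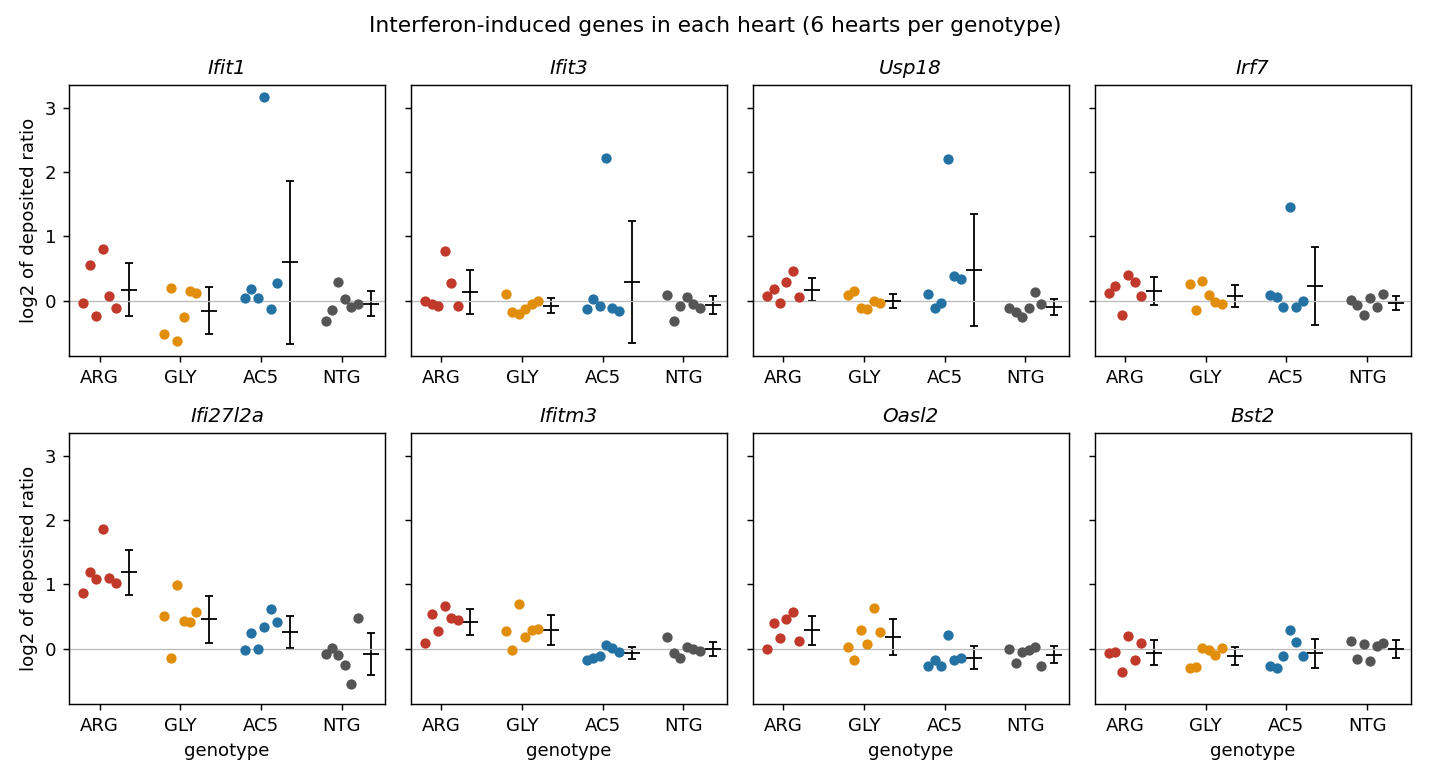
Log2 of the deposited ratio (vertical axis) of 8 interferon-induced genes in each heart of the 4 genotypes (horizontal axis), with 1 point per heart in order of replicate and the mean with its SD beside the points (n = 6). Ifit1, Ifit3, Usp18 and Irf7 have 1 high AC5 heart, replicate 4, and for Ifi27l2a 5 of 6 ARG hearts lie above every other heart.

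Ifi27l2a had ratios of 1.83 to 3.66 in ARG hearts (median 2.13), against 0.686 to 1.39 in NTG hearts (median 0.934). Every ARG heart lay above every NTG heart, which was so in the same direction for 2.62% of all genes. The mean ratio was 2.34 ± 0.66 in ARG hearts and 0.966 ± 0.236 in NTG hearts (SD, n = 6 each). The log2 difference was 1.27 ± 0.17 (SE, limma, adjusted p = 1.10e-05). The highest ARG heart, replicate 4 at 3.66, stood apart from the other 5 ARG hearts, which reached 2.29. Without it the difference was 1.14 ± 0.16 (limma, adjusted p = 3.10e-05). Within replicates 1 to 3 of both genotypes it was 1.11 and within replicates 4 to 6 it was 1.43, both called (limma, adjusted p = 0.00903 and 0.00233).

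Ifitm3 had ratios of 1.06 to 1.58 in ARG hearts (median 1.38), against 0.908 to 1.13 in NTG hearts (median 0.984). In 5 of 6 ARG hearts the value lay above every NTG heart. The log2 difference was 0.42 ± 0.10 (SE, n = 6 each, limma, adjusted p = 0.00443). It was called within replicates 4 to 6 (0.53, adjusted p = 0.0038) but not within replicates 1 to 3 (0.31, limma, adjusted p = 0.425). Oasl2 had ratios of 0.997 to 1.48 in ARG hearts (median 1.22), against 0.826 to 1.02 in NTG hearts (median 0.979). Its log2 difference was 0.38 ± 0.12 (limma, adjusted p = 0.038), with 5 of 6 ARG hearts above every NTG heart. That call was lost when NTG replicate 2, 3 or 6 or ARG replicate 2, 4 or 5 was left out (limma, adjusted p of 0.0571 to 0.109), and within either set of 3 replicates (0.371 and 0.117). After quantile normalization Oasl2 was not called either (0.36, limma, adjusted p = 0.1015).

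The other 5 genes were not called in ARG hearts. Their log2 differences from NTG were 0.22 ± 0.35 for Ifit1, 0.20 ± 0.26 for Ifit3, 0.18 ± 0.18 for Irf7, 0.27 ± 0.23 for Usp18 and -0.06 ± 0.10 for Bst2 (limma, adjusted p of 0.609 to 0.85). The fit pools the spread of all genotypes, and without AC5 replicate 4 the SE were 0.16, 0.11, 0.09 and 0.10 for the first 4, still with no call (limma, adjusted p of 0.0789 to 0.518). ARG replicate 4 had the highest ARG value of Ifit1 (1.74), Ifit3 (1.71) and Irf7 (1.32), and ARG replicate 5 that of Usp18 (1.38). The ARG and NTG values of each of these 5 genes overlapped.

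**Figure D2:**
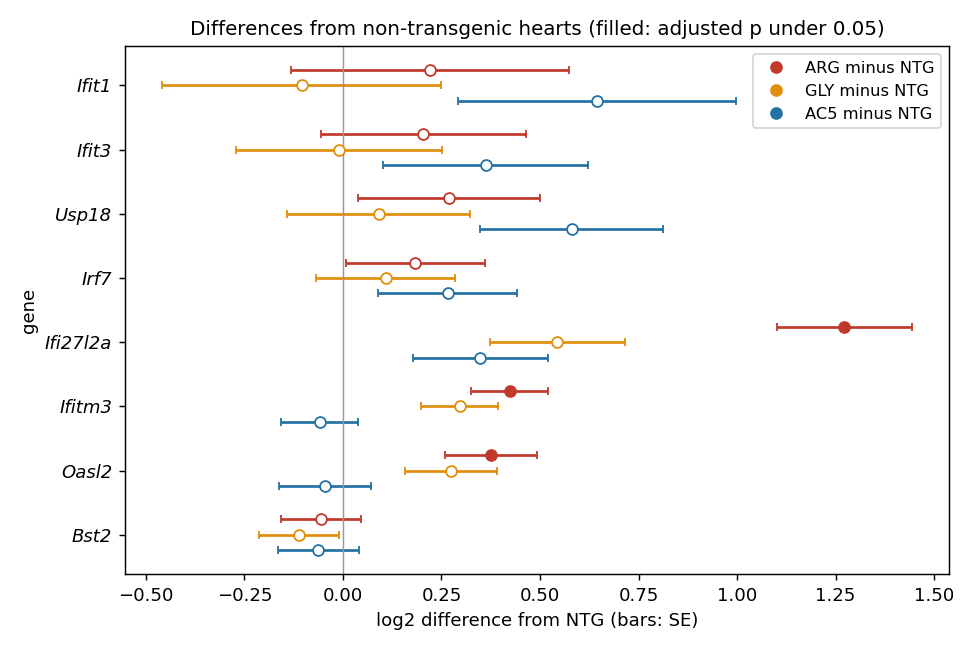
Log2 difference from NTG hearts (horizontal axis, bars of 1 SE) for 8 interferon-induced genes (vertical axis) in ARG, GLY and AC5 hearts, with filled points at a limma adjusted p under 0.05. The 3 filled points are ARG values, of Ifi27l2a (1.27), Ifitm3 (0.42) and Oasl2 (0.38).

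In GLY hearts none of the 8 genes was called against NTG by limma, while 1.34% of all genes were called higher and 4.12% lower. At an unadjusted p under 0.05 there were 3, Ifi27l2a, Ifitm3 and Oasl2, and 18.95% of all probe sets. Ifi27l2a had ratios of 0.904 to 1.99 in GLY hearts (median 1.38), against 0.686 to 1.39 in NTG hearts (median 0.934). Its log2 difference was 0.54 ± 0.17 (limma, adjusted p = 0.0624). This passed the threshold without NTG replicate 6 (0.0277), GLY replicate 2 (0.0166) or ARG replicate 4 (0.0349). Ifitm3 differed by 0.30 ± 0.10 (limma, adjusted p = 0.0773), with 5 of 6 GLY hearts above every NTG heart, and passed without GLY replicate 2 (0.0271). Oasl2 differed by 0.27 ± 0.12 (limma, adjusted p = 0.187). GLY replicate 3 had the highest Ifitm3 ratio of all hearts (1.62) and GLY replicate 5 the highest Oasl2 ratio (1.55). Ifit1, Ifit3, Usp18, Irf7 and Bst2 lay between -0.11 and 0.11 in GLY against NTG. Comparisons with NTG share the same 6 NTG hearts.

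ARG and GLY hearts were compared directly, since they differ in the form of the receptor. Ifi27l2a was higher in ARG hearts, at a mean ratio of 2.34 ± 0.66, against 1.41 ± 0.35 in GLY hearts (SD, n = 6 each). Its log2 difference was 0.73 ± 0.17 (limma, adjusted p = 0.0257), and 5 of 6 ARG hearts lay above every GLY heart. Of all genes 0.989% were called higher and 0.907% lower. The call on Ifi27l2a was fragile. It was lost without GLY replicate 2, GLY replicate 5, ARG replicate 2 or ARG replicate 4 (limma, adjusted p of 0.0513 to 0.0801), and when only these 2 genotypes were fitted (0.132). After quantile normalization the difference was 0.41 (limma, adjusted p = 0.646). The other 7 genes were not called, with log2 differences of 0.05 to 0.33. Ordered by mean ratio, Ifi27l2a was highest in ARG, then GLY, AC5 and NTG, and neither GLY against AC5 (log2 difference 0.20 ± 0.17) nor AC5 against NTG (0.35 ± 0.17) was called.

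Against AC5 hearts, 3 of the 8 genes were higher in ARG, while 3.16% of all genes were called higher and 3.19% lower. The log2 differences were 0.92 ± 0.17 for Ifi27l2a, 0.48 ± 0.10 for Ifitm3 and 0.42 ± 0.12 for Oasl2 (limma, adjusted p = 0.00114, 0.0027 and 0.0308). Every ARG heart lay above every AC5 heart for Ifi27l2a and Ifitm3, as was so for 1.87% of all genes. After quantile normalization the difference of Ifi27l2a was 0.50, not called (limma, adjusted p = 0.136), and within replicates 1 to 3 Ifitm3 was not called (0.39). In both sets of 3 replicates the difference of Ifi27l2a missed the threshold (0.98 and 0.87, limma, adjusted p = 0.0529 and 0.0604). The Oasl2 call was lost without any 1 of 8 arrays, namely ARG replicates 2, 4 and 5 and AC5 replicates 1, 2, 3, 5 and 6 (limma, adjusted p of 0.0565 to 0.093). In GLY against AC5 none of the 8 was called by limma, and 0.857% of all genes were called in either direction. At an unadjusted p under 0.05 there were 4 of the 8 and 11.8% of all probe sets. Of these 4, Ifit1 and Usp18 were lower in GLY and rested on AC5 replicate 4, with log2 differences of -0.75 and -0.49 with that heart and -0.23 and -0.14 without it. Ifitm3 there differed by 0.35 ± 0.10 (limma, adjusted p = 0.0917), and by 0.42 without GLY replicate 2 (0.0327).

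The AC5 group was set apart by 1 heart. Of the 8 genes none was called between AC5 and NTG by limma, with 1, Usp18, at an unadjusted p under 0.05, and 0.176% of all genes were called. Yet AC5 replicate 4 had an Ifit1 ratio of 8.998, while the other 5 AC5 hearts lay between 0.911 and 1.20 and NTG hearts between 0.804 and 1.22. For Ifit3 its ratio was 4.67, with 0.898 to 1.02 in the other AC5 hearts and 0.804 to 1.06 in NTG hearts. For Usp18 it was 4.63, with 0.921 to 1.31 in the other AC5 hearts and 0.842 to 1.10 in NTG hearts. For Irf7 it was 2.74, with 0.928 to 1.06 in the other AC5 hearts and 0.859 to 1.07 in NTG hearts. This heart was the highest of all 24 for these 4 genes and for Bst2 (1.22, with the next heart at 1.14).

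The other measured genes of the set did not have their highest value of 24 hearts in AC5 replicate 4. Ifi27l2a stood at 1.27 there, which ranked 15 of 24 hearts, Ifitm3 at 1.04 (rank 13) and Oasl2 at 1.16 (rank 7). Within the AC5 group, however, Oasl2 in that heart was above the other 5 hearts, which lay between 0.825 and 0.903. Ifitm3 was also highest of the AC5 group there, with the other 5 hearts at 0.889 to 1.00. The 3 genes that rose in ARG hearts were those without their highest value in AC5 replicate 4. The 24 hearts ranked include the ARG hearts, so a rise there by itself lowers the rank of an AC5 heart. These ranks therefore cannot show whether the members form separate groups. Over the AC5 group, the log2 difference of Ifit1 from NTG was 0.64 ± 0.35 with that heart and 0.13 ± 0.17 without it. For Ifit3 it was 0.36 with and -0.02 without that heart, for Usp18 0.58 and 0.23, and for Irf7 0.27 and 0.02. None of these was called with or without it (limma, adjusted p of 0.521 to 0.989).

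The same heart was then ranked over all 18193 genes by the ratio of its value to the next highest of the other 23 hearts. Ifit1 led (5.17-fold over the next heart), followed by Usp18 (3.35-fold) and Ifit3 (2.73-fold), and Irf7 ranked 6 (2.07-fold). Of the first 10 genes 4 were members and another 4 stood on the lists of other interferon pathway genes. These were Ifit2 (2.32 in that heart, at most 1.05 elsewhere), the oligoadenylate synthetase relative Oasl1 (2.16 against 1.30), the interferon-inducible GTPase Irgm1 (1.79 against 1.26) and Rsad2, the antiviral enzyme viperin (2.01 against 1.51). The remaining places were taken by BC023105 and by 1 of 4 probe sets of Hspa8, a constitutive heat shock protein. Of the first 20 genes 4 were members and 7 stood on those lists. The 18193 genes ranked held 8 members and 123 genes of the lists. This ranking was chosen after the values were seen and, with 1 heart, has no test.

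**Figure D3:**
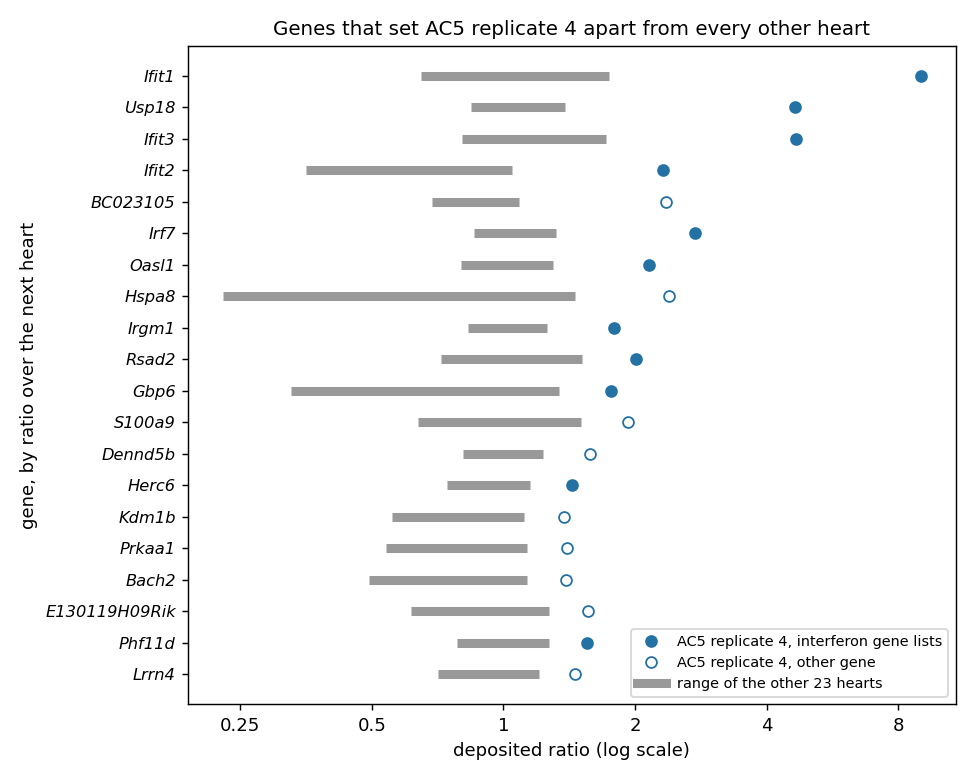
Deposited ratio (horizontal log axis) in AC5 replicate 4 (points) and the range of the other 23 hearts (bars) for the 20 genes with the largest ratio of that heart over the next (vertical axis). Filled points are genes of the interferon lists; Ifit1 stands at 8.998 where no other heart passed 1.74.

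The other interferon pathway genes were then looked at in that heart, as a description of 1 heart with no test. Of 123 such genes measured, 14 (11.4%) had their highest value of 24 hearts in AC5 replicate 4, while 1.76% of all genes did. In the other 5 AC5 hearts together 6 of the 123 did. Each of those 5 hearts held 0% to 2.44% of the pathway genes and 1.93% to 4.47% of all genes. Like AC5 replicate 4, some hearts of other genotypes held more of the pathway genes than of all genes. Examples are ARG replicate 2 (12, or 9.76%, against 3.08%) and ARG replicate 4 (13, or 10.6%, against 6.69%). By list the 14 genes of AC5 replicate 4 were 7 of 53 type I induced genes, 3 of 29 gamma induced genes, 3 of 13 sensors, 1 of 9 ligands and none of 6 receptors or 13 signalling genes. The sensors were Ddx58, which encodes RIG-I and detects viral RNA (1.40, at most 1.24 elsewhere), Tlr3 (1.20, at most 1.15) and the kinase Tbk1 (1.17, at most 1.16). Some margins were small, and the gamma induced gene Igtp stood at 1.942, with the next heart at 1.941. Ifnb1 stood at 0.96 and Ifng at 0.906, within the range of the other hearts, and a ratio without a level cannot show whether either was transcribed. Several well-known targets did not have their highest value there, such as Mx1 (1.10, rank 3 of 24), the chemokine Cxcl10 (1.10, rank 5) and Oas2 (0.947, rank 14). For Oas1a (1.38), Rtp4 (1.385) and Ifih1 (1.27), among others, that heart ranked 2 of 24. Macrophage markers averaged -0.19 on the log2 scale in that heart, the lowest of the AC5 group, and T and NK cell markers 0.03. Neutrophil markers averaged 0.27, with 0.43 in AC5 replicate 1 and -0.14 to -0.07 in the other AC5 hearts, and their part in the result was not tested.

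**Figure D4:**
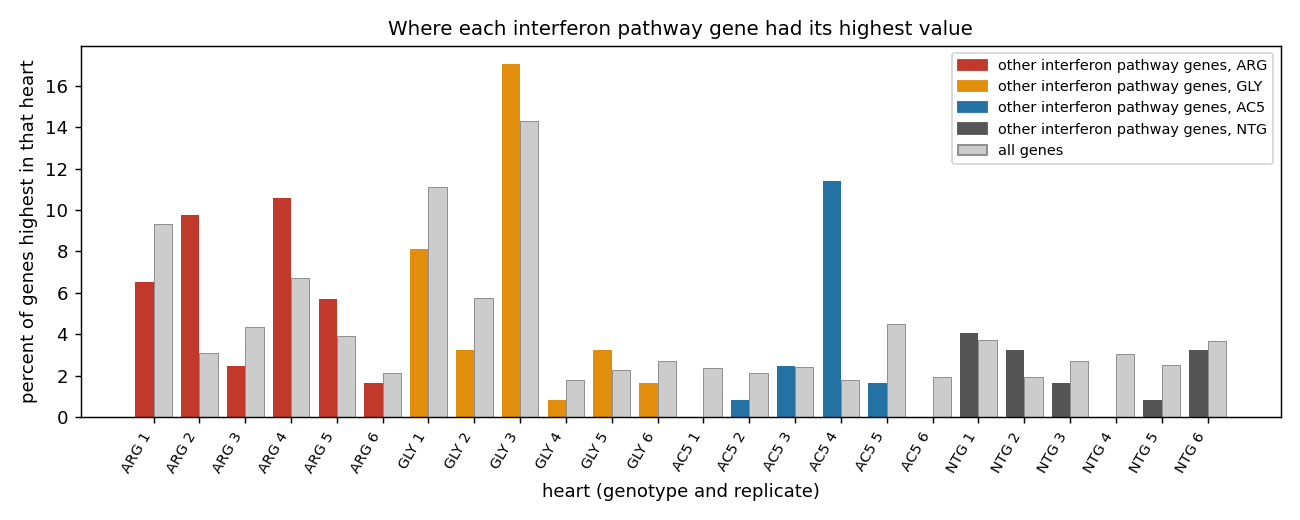
Percent of genes (vertical axis) whose highest value over 24 hearts fell in each heart (horizontal axis), for 123 other interferon pathway genes (coloured bars) and all 18193 genes (grey bars). AC5 replicate 4 held 11.4% of the pathway genes and 1.76% of all genes, and GLY replicate 3 held 17.1% and 14.3%.

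The pathway was examined in the same way between genotypes. In ARG against NTG, 15 of the 123 other genes rose (12.2%) and 8 fell (6.5%), with a median log2 difference of 0.05. Over all genes 4.24% were called higher and 7.1% lower, so the share that fell was near that of all genes. No ligand or receptor was called. Among sensors, Tlr7, an endosomal receptor for single-stranded RNA, rose by 0.54 ± 0.11 (limma, adjusted p = 0.00154), at 1 of 3 probe sets. Among signalling genes, Irf8, a factor of the myeloid lineage, rose by 0.69 ± 0.14 at both probe sets, Irf2 rose by 0.60 ± 0.15 and Irf3, which drives interferon beta, fell by 0.49 ± 0.12 at 2 of 4 probe sets. Of 53 type I induced genes 7 rose and 4 fell. The largest rises were Ifitm2, a relative of Ifitm3 (0.50 ± 0.13), the scramblase gene Plscr1 (0.46 ± 0.13, at 1 of 3 probe sets) and Lgals3bp (0.43 ± 0.12). The largest falls were Plscr2 (-0.73 ± 0.20), Helz2 (-0.58 ± 0.13) and Trim25, a ubiquitin ligase that activates RIG-I (-0.53 ± 0.11, at 2 of 3 probe sets). Plscr1 was not called without ARG replicate 2 or 3, and Lgals3bp not without NTG replicate 2 or 3 or ARG replicate 2, 4 or 5. After quantile normalization Ifitm2, Plscr1 and Lgals3bp were not called (limma, adjusted p = 0.102, 0.0906 and 0.0501). Irf2 (0.2715), Plscr2 (0.0694) and Trim25 (0.0524) were not called then either, while Tlr7, Irf8, Irf3 and Helz2 were. Within replicates 1 to 3 Ifitm2 was not called (0.30, limma, adjusted p = 0.516).

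The gamma induced genes went both ways in ARG hearts, 5 of 29 rising and 3 falling. The rises were led by MHC class II genes. H2-Aa had ratios of 1.30 to 3.00 in ARG hearts (median 2.04), against 0.729 to 1.11 in NTG hearts (median 0.941). These groups did not overlap, as was so in the same direction for 2.62% of all genes. H2-Ab1 rose by 1.14 ± 0.24, H2-Aa by 1.12 ± 0.24 and Cd74, the invariant chain, by 0.98 ± 0.18 on the log2 scale. The falls were Iigp1 (-1.21 ± 0.27) and Gbp6 (-0.69 ± 0.18), which encode interferon-inducible GTPases and fell at both probe sets, and the class I gene H2-D1. H2-D1 fell by 0.44 ± 0.12 at 1 of 9 probe sets, not called without NTG replicate 5 or ARG replicate 3, and class I genes are alike enough in sequence for probe sets to be shared. After quantile normalization Iigp1, Gbp6 and H2-D1 were not called (limma, adjusted p = 0.066, 0.061 and 0.227), while H2-Aa, H2-Ab1 and Cd74 were. Of the 23 calls among the 123 genes, 17 held without any 1 array and 10 after quantile normalization.

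In GLY against NTG, 4 of the 123 genes rose (3.25%) and 6 fell (4.88%), while 1.34% of all genes were called higher and 4.12% lower, so that the share that fell was again near that of all genes. Iigp1 had ratios of 0.304 to 0.721 in GLY hearts (median 0.400), against 0.542 to 1.51 in NTG hearts (median 0.904), a log2 difference of -1.12 ± 0.27. Gbp6 fell by 0.89 ± 0.18 and, like Iigp1, did so at both probe sets. Trim25 fell by 0.56 ± 0.11 at 2 of 3 probe sets, and H2-D1 by 0.58 ± 0.12 at 1 of 9. These 4 calls held without any 1 array, and none of the 10 was called after quantile normalization. The other 6 calls ended when single arrays were left out. The first was Ifnar1, a chain of the type I receptor (0.51 ± 0.13, at 1 of 2 probe sets). That call was lost without NTG replicate 1 or 6 or GLY replicate 3 or 5. The others were Irf3 (-0.43 ± 0.12, at 1 of 4 probe sets, ended by 6 arrays), Ube2l6 (0.40 ± 0.12, by 10), Ddx24 (0.31 ± 0.09, at 1 of 2 probe sets, by 8), Slfn2 (0.25 ± 0.07, by 14) and Samd9l (-0.61 ± 0.18, by 16). In AC5 against NTG none of the 123 genes was called by limma, and 9 (7.32%) had an unadjusted p under 0.05, while 7.26% of all probe sets did. In ARG against GLY 2 of the 123 genes were higher (1.63%), while 0.989% of all genes were. They were Tlr7 (0.72 ± 0.11, at 1 of 3 probe sets) and Herc6 (0.42 ± 0.11, at 1 of 4, ended by 15 of the 24 arrays). Neither was called after quantile normalization (limma, adjusted p = 0.0845 and 0.5001).

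Against AC5 hearts 9 of the 123 genes were higher (7.32%) and 3 lower (2.44%) in ARG. Of all genes 3.16% were called higher and 3.19% lower, so the share that was lower did not pass that of all genes. H2-Aa was higher by 1.41 ± 0.24, H2-Ab1 by 1.27 ± 0.24, Cd74 by 1.23 ± 0.18, Tlr7 by 0.70 ± 0.11, Ifitm2 by 0.61 ± 0.13 and Irf8 by 0.60 ± 0.14. Tlr7 was called at 1 of 3 probe sets, Irf8 at 1 of 2 and H2-Aa at 3 of 4. Gbp6 had ratios of 0.494 to 0.837 in ARG hearts, 0.327 to 0.757 in GLY hearts and 0.955 to 1.76 in AC5 hearts. The value of 1.76 was that of AC5 replicate 4, and the other AC5 hearts lay between 0.955 and 1.34. Gbp6 was lower than in AC5 by 0.94 in ARG and 1.14 in GLY, as log2 sizes. Trim25 was lower as well, at 2 of 3 probe sets in each comparison. Its log2 difference from AC5 was -0.54 ± 0.11 in ARG and -0.57 ± 0.11 in GLY. Gbp6 and Trim25 both had their highest value of 24 hearts in AC5 replicate 4, and these calls held without any 1 array. Gbp6 and Trim25 were the only 2 of the 123 genes (1.63%) called in GLY against AC5, where 0.857% of all genes were called. After quantile normalization Trim25 was not called there (limma, adjusted p = 0.0674), and 8 of the 12 ARG calls against AC5 held, without Irf8 (0.121).

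Macrophage markers were set beside the genes that rose in ARG hearts. Of 18 such markers 11 rose in ARG against NTG, with a median of 0.67, and 1 rose and 2 fell in GLY. The mean log2 ratio of the 18 ranged from 0.23 to 0.86 in ARG hearts, from -0.31 to 0.45 in GLY hearts, from -0.19 to 0.18 in AC5 hearts and from -0.07 to 0.04 in NTG hearts. ARG replicate 4, with the highest Ifi27l2a ratio (3.66), also had the highest marker mean (0.86), and ARG replicates 1 and 3, with the lowest marker means (0.23 each), had Ifi27l2a ratios of 1.83 and 2.11. The order did not hold throughout, since ARG replicate 6 had a marker mean of 0.70 and an Ifi27l2a ratio of 2.02, and GLY replicate 3 a marker mean of 0.09 and the highest GLY ratio of Ifi27l2a (1.99). GLY replicate 6 had a marker mean of 0.45, above that of ARG replicates 1 and 3, and an Ifi27l2a ratio of 1.48. Over all hearts Ifitm3 was highest in GLY replicate 3 (1.62, marker mean 0.09) and Oasl2 in GLY replicate 5 (1.55, marker mean 0.0004). Among ARG hearts Ifitm3 was highest in replicate 4 (1.58, marker mean 0.86) and Oasl2 in replicate 5 (1.48, marker mean 0.72). Fibroblast markers rose as well in ARG (4 of 8), and 3 of 10 endothelial and 2 of 10 cardiomyocyte markers fell. Beside these marker counts, 4.24% of all genes were called higher and 7.1% lower in ARG against NTG, and 1.34% and 4.12% in GLY. None of 8 plasmacytoid dendritic, 11 T and NK, 4 B cell or 6 neutrophil markers was called in ARG against NTG. The part of these cells in the result was not tested.

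**Figure D5:**
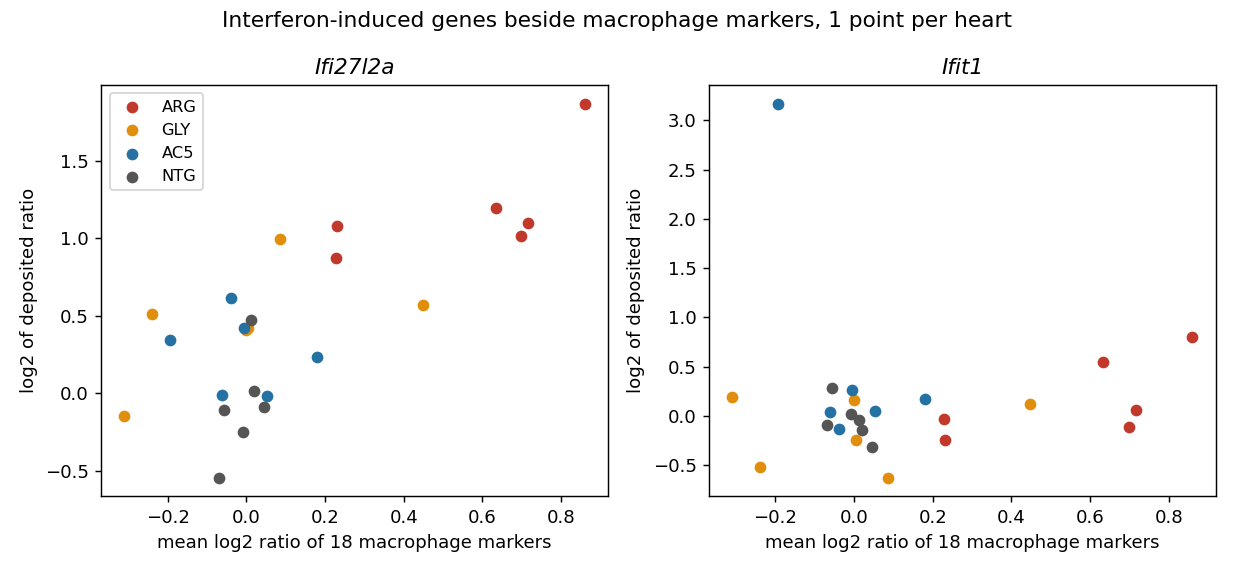
Log2 ratio of Ifi27l2a (left) and Ifit1 (right) on the vertical axes against the mean log2 ratio of 18 macrophage markers (horizontal axes), 1 point per heart. The ARG hearts, with marker means of 0.23 to 0.86, include the 5 highest Ifi27l2a values, while the highest Ifit1 value belongs to an AC5 heart with a marker mean of -0.19.

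Likeness from heart to heart within a genotype was described last. Each value was taken as its deviation from the mean of its genotype, over 24 hearts, and correlations are given as a description with no test. Among Ifit1, Ifit3, Usp18 and Irf7, grouped here for their peak in AC5 replicate 4, the 6 pairs had a median Pearson r of 0.89, and the other 22 pairs of members 0.47. Without that heart the medians were 0.26 for the 6 pairs and 0.27 for the other 22. The genes whose deviations were most like the mean of the 8 were Oasl1 (r = 0.76, rho = 0.31), Irgm1 (0.75, 0.45), Hspa8 (0.75, 0.55), B3galt2 (0.74, 0.43) and Oas1a (0.72, 0.67). Without AC5 replicate 4 they were Plpp5 (r = 0.89, rho = 0.84), Fcgr1, an immunoglobulin receptor of macrophages (0.87, 0.84), the lysosomal protease gene Ctsz (0.87, 0.83), Gyg (0.86, 0.80) and Plp2 (0.85, 0.79). The hearts share their arrays in both measures.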

How the data were processed

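Gene expression in 24 mouse hearts was measured on Affymetrix arrays. The deposited table holds a linear ratio per probe set. RMA is named per the submitters' processing notes, with no version given in the sources used here, and the division by a control level was read from the values. Of 45101 probe sets 64 Affymetrix controls were left out. Of the 45037 tested, 34945 had 1 gene symbol, 932 several and 9160 none in the platform annotation, and symbols were updated through Entrez identifiers. The array medians of log2 ratios lay between -0.05 and 0.09. No filter on dim probe sets or background correction could be tried, since a ratio holds no signal level.

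Log2 of the ratio was fitted with limma 3.58.1 in R 4.3.3, 1 mean per genotype over all 24 arrays. P-values were two-sided, adjusted by Benjamini-Hochberg over all probe sets of a comparison, and called under 0.05. "Rose" and "fell" are used of calls. Errors are SE of the fitted difference or SD over hearts, and the number of hearts limits precision. The labels call the hearts biological replicates. Genes with several probe sets were counted at 1, chosen by suffix and then lowest number. Interferon pathway lists held 141 other genes, 123 of them measured, and up to 3 rises and 3 falls per list were named, with other genes of AC5 replicate 4 and of the marker lists chosen after their values were seen. Members and lists were chosen with earlier results of these data known. The fit was checked on simulated data. Tables and figures were made in Python 3.11.15 (numpy 2.4.6, pandas 2.3.3, matplotlib 3.10.9).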

Additional observations from a re-analysis of the deposited data

Results flagged for a closer look

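Over the 8 genes and 4 genotypes, 32 groups of 6 hearts were looked at for a single heart far from the rest, and 6 had one. By chance the rule flags about 1 in 20 groups (1.6 here). The genes share the same hearts and were chosen with earlier results known. The groups are therefore not independent, and the 6 flags are no test against that number. Of the 6 flags 5 belonged to AC5 replicate 4, the highest of its group for Ifit1 (8.998), Ifit3 (4.673), Usp18 (4.635), Irf7 (2.739) and Oasl2 (1.162). The remaining one was ARG replicate 4, the highest ARG heart for Ifi27l2a (3.656, with the other 5 at 1.83 to 2.29).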

How the results depend on the processing

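Over 38 alternatives, none of the values of named genes called in either fit changed direction. The number of the 8 genes called in ARG against NTG (3) was 1 within replicates 1 to 3, and 2 to 3 without any 1 array. It was 2 within replicates 4 to 6 and after quantile normalization, where Oasl2 was not called. In GLY against NTG (0) it was 2 with a weight per array and 0 to 2 without any 1 array. In ARG against GLY (1) it was 0 when only the 2 genotypes were fitted, within replicates 1 to 3, within replicates 4 to 6, after quantile normalization and with a weight per genotype, and 0 to 1 without any 1 array. In ARG against AC5 (3) it was 0 within replicates 1 to 3, 1 within replicates 4 to 6, 1 after quantile normalization, and 2 to 3 without any 1 array. In GLY against AC5 (0) it was 0 to 1 and in AC5 against NTG 0 without any 1 array. Same-numbered hearts correlated over 0.1 in 16 of 36 pairs of arrays (-0.289 to 0.492). ARG with GLY and ARG with AC5 each had 5 of 6 such pairs, ARG with NTG had 0, and no 2 genotypes had all 6. In ARG with GLY all 6 correlations were above 0 (0.0525 to 0.492). The main fit did not pair hearts by number, and these values do not settle whether the numbers mark a pairing. With the replicate block the count was 3 in ARG against NTG, 1 in ARG against GLY, 3 in ARG against AC5 and 0 in the other comparisons, as without it, while the calls on Herc6 in ARG against GLY (adjusted p = 0.0569) and on Slfn2 (0.0643) and Samd9l (0.0533) in GLY against NTG were lost. Within the sets fewer hearts were fitted. For the other settings the cause was not tested. The alternative without AC5 replicate 4, GLY replicates 1 and 3 and ARG replicate 1 together was chosen after seeing the data. A ratio keeps no signal over background, so which values came from dim probe sets is unknown here.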
